A study of Mus musculus with 237 samples.

Results

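The mitosis genes are 39 genes of the 36186 gene entries in a deposited table of single-cell expression from the embryonic mouse kidney. They were taken from a list of gene symbols whose products build the spindle, attach chromosomes to it, time their separation and divide the cell, and each symbol matched 1 entry. The list was put together by function, with earlier results of these data known. For each cell the mitosis score is the mean of log2(RPKM + 1) over the 39 genes, and a gene was called detected at 1 RPKM or more. RPKM scales reads to gene length and to the mapped reads of the cell.

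The series profiled single cells after proteolytic digestion, flow sorting and capture on a Fluidigm C1 device, and asked how wild-type cap mesenchyme, wild-type stroma and Pax2 mutant cap mesenchyme differ. Nephrons arise from progenitors in the cap mesenchyme, which sits in a stroma called the interstitium, and Pax2 is a transcription factor that nephron progenitors need. The E18.5 (embryonic day) cells were 74 from wild-type cap mesenchyme or derived from it, 71 from wild-type interstitium, whose titles carry the name FoxD1 GCE, and 44 from Pax2 mutant cap mesenchyme. The E13.5 cells were 18 from wild-type and 29 from Pax2 mutant cap mesenchyme. The strain of every group is given only as mixed, and neither the Pax2 allele nor its zygosity is stated. No label names an embryo, so each group counts as 1 sample, no test between groups was possible, and every SD describes the spread between cells. Intervals beside shares are 95% Clopper-Pearson intervals (exact binomial) and account only for counting error.

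A dividing cell makes the products of these genes for a short time. Their transcripts are mostly held low in resting cells and in G1, rise through S and G2 phase and peak towards mitosis. Some of their proteins are destroyed when the anaphase-promoting complex acts. In the developing kidney both the nephron progenitors and the interstitial progenitors divide while the organ grows, and a progenitor that differentiates leaves the cycle.

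Depth is unknown because no read counts were given, and the number of genes detected per cell is used in its place. Its medians were 5210.5 in E18.5 cap, 5178 in interstitium, 3643 in E18.5 mutant, 5566 in E13.5 cap and 4560 in E13.5 mutant cells. The titles give each group its own date. By the pool numbers in the titles, 22 interstitium cells were in pool 2 with all E18.5 cap cells, 49 were in pool 3 with both E13.5 groups, and the grouped cells of pool 4 were the E18.5 mutant cells. A difference of pool 4 from the other pools thus cannot be told apart from one of the E18.5 mutant cells. Interstitium cells lie in both pool 2 and pool 3, and their mitosis scores there are given below. The groups also differed in sex. Female transcripts alone (Xist) were found in 67 of the E18.5 cap cells and in 42 and 27 mutant cells of E18.5 and E13.5, and male transcripts alone (Y-linked) in 17 of the E13.5 cap cells and 70 interstitium cells. Pax2 was detected in 56 of 74 cells of the E18.5 cap, 15 of 18 of the E13.5 cap, 18 of 71 of the interstitium, 0 of 44 of the E18.5 mutant and 17 of 29 of the E13.5 mutant, and as the allele is unknown these transcripts do not check the mutation. The score over 8 nephron progenitor markers (Six2, Cited1 and others) averaged 3.70 in E18.5 cap and 0.44 in E18.5 mutant cells. The score over 8 interstitium markers (Foxd1, Pdgfra, Col1a1 and others) averaged 0.76 in E18.5 cap, 4.07 in interstitium and 5.0 in E18.5 mutant cells. The E18.5 cells labelled as mutant cap therefore carried interstitium markers and little of the progenitor markers. At E13.5 the progenitor score was 3.17 in cap and 0.91 in mutant cells, and the interstitium score 1.32 and 1.93. Each immune marker was at 0 in every cell outside the E18.5 mutant group, and scores of 2 or more were reached by 2 cells for the ureteric epithelium, 2 for the endothelium, 1 for immune cells, 2 for erythroid cells and 0 for podocytes.

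The mitosis genes were widely detected in wild-type cells of both lineages and nearly absent from E18.5 mutant cells. The score averaged 3.56 ± 2.40 (SD, 74 cells) in E18.5 cap and 3.35 ± 2.30 (71 cells) in interstitium cells. It averaged 0.66 ± 0.98 (44 cells) in E18.5 mutant cells. The E13.5 cap cells had the highest mean, 5.47 ± 1.52 (18 cells), and the E13.5 mutant cells lay below both E18.5 wild-type groups at 2.61 ± 2.38 (29 cells). In the order of the means, E18.5 cap, interstitium and E13.5 mutant are neighbours that differ by less than the spread between their cells.

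The means hide broad distributions. From lowest through median to highest, the score ran 0.57, 3.18 and 7.70 in E18.5 cap cells and 0.47, 2.97 and 7.84 in interstitium cells, so both held cells at either end. It ran 0.17, 0.46 and 6.75 in E18.5 mutant cells, where 1 cell alone stood above 1.92. At E13.5 it ran 1.11, 5.97 and 6.94 in cap cells and 0.47, 1.52 and 7.17 in mutant cells. The ranges of all 5 groups overlapped, but the upper quartile of the E18.5 mutant cells (0.63) lay below the lower quartiles of the other groups, of which the lowest was 0.72 in E13.5 mutant cells.

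**Figure D1:**
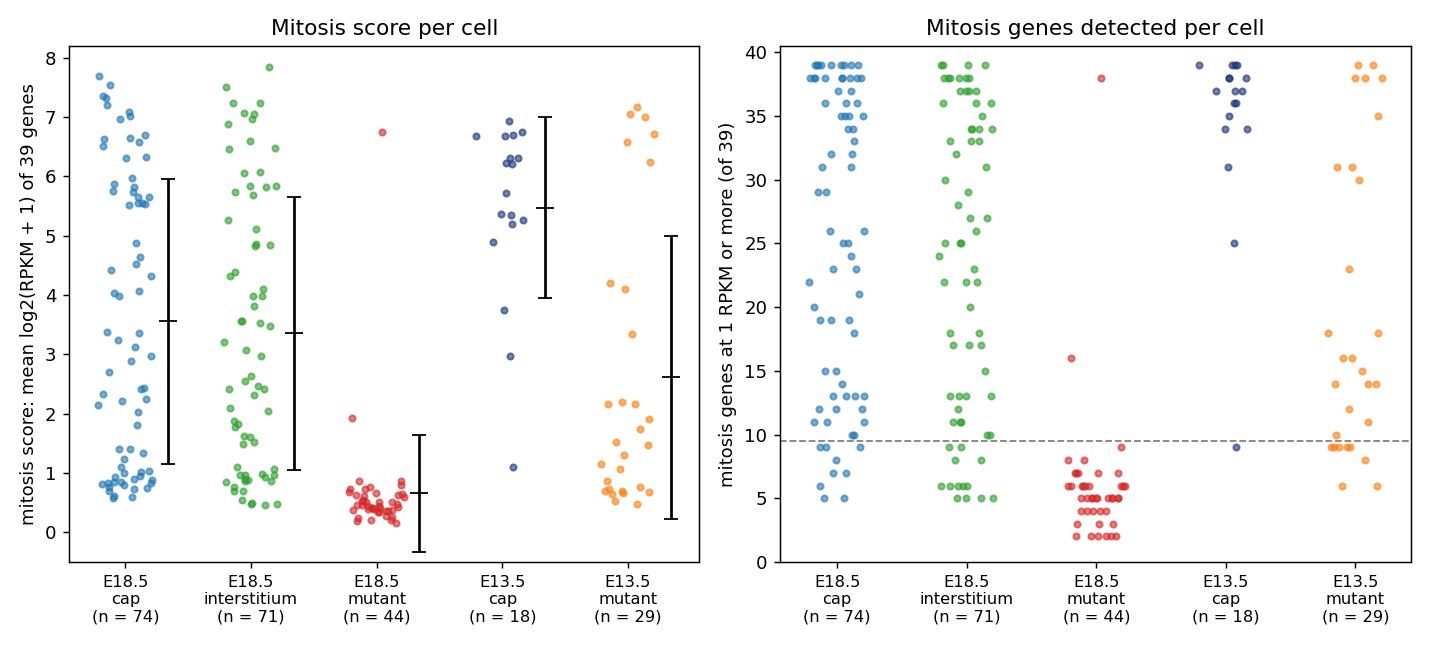
Mitosis score per cell (left, mean log2(RPKM + 1) of 39 genes) and number of the 39 genes at 1 RPKM or more per cell (right) in the 5 groups. Each point is 1 cell, the bars at the side give mean and SD between cells, the dashed line separates cells with 9 or fewer from those with 10 or more genes, and only 2 E18.5 mutant cells lie above it.

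Counts of detected genes gave the same picture. At least 10 of the 39 genes were detected in 65 of 74 E18.5 cap cells (87.8%, interval 78.2 to 94.3) and 58 of 71 interstitium cells (81.7%, 70.7 to 89.9). In E18.5 mutant cells it was 2 of 44 (4.55%, 0.555 to 15.5). At E13.5 it was 17 of 18 cap cells (94.4%, 72.7 to 99.9) and 21 of 29 mutant cells (72.4%, 52.8 to 87.3). The E18.5 mutant share lay below the other 4 by more than counting error, and the spread between embryos is not known. The median number of genes detected was 26 in E18.5 cap, 25 in interstitium, 5 in E18.5 mutant, 37 in E13.5 cap and 15 in E13.5 mutant cells. Over the 5 groups, 30 cells had 8 to 11 genes, close to the threshold of 10, and the E13.5 mutant group had 5 cells at 9 and 1 at 10.

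A threshold of 30 members was added after the data were seen. At least 30 of the 39 genes were detected in 16 of 18 E13.5 cap cells (88.9%, 65.3 to 98.6) and 9 of 29 E13.5 mutant cells (31%, 15.3 to 50.8). The count was 34 of 74 in E18.5 cap (45.9%, 34.3 to 57.9), 28 of 71 in interstitium (39.4%, 28 to 51.7) and 1 of 44 in E18.5 mutant cells (2.27%, 0.0575 to 12). At E13.5 all 39 genes were detected in 4 cap cells and 2 mutant cells, and at E18.5 in 9 cap, 4 interstitium and 0 mutant cells.

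The level was also read within the cells that had 30 or more of the genes. These cells were chosen by the same genes that make up the score, so their means are a description and no comparison of groups. The score averaged 5.90 ± 1.13 in E18.5 cap (34 cells), 5.85 ± 1.18 in interstitium (28 cells), 5.90 ± 0.87 in E13.5 cap (16 cells) and 5.82 ± 1.5 in E13.5 mutant cells (9 cells), and the 1 E18.5 mutant cell was at 6.75.

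The score moved with the number of genes per cell, and the mutant cells had fewer genes. Pearson's r between both measures, given as a description over cells of 1 group, was 0.57 in E18.5 cap, 0.51 in interstitium, 0.11 in E18.5 mutant, 0.48 in E13.5 cap and 0.43 in E13.5 mutant cells. Among cells with 3000 to 5000 genes, the score was 2.0 ± 1.52 in 26 E18.5 cap cells, 2.08 ± 1.68 in 35 interstitium cells and 0.69 ± 1.10 in 33 E18.5 mutant cells. Their medians were 4145 genes in cap, 4209 in interstitium and 3769 in mutant cells, so the mutant cells still had fewer. In that range 21 of 26 cap cells (80.8%, 60.6 to 93.4) and 1 of 33 mutant cells (3.03%, 0.0767 to 15.8) had 10 or more genes. At least 30 genes were found in 3 cap cells (11.5%, 2.45 to 30.2) and 1 mutant cell (3.03%), whose intervals overlap. For E13.5 the range left 2 cap cells, at 3.94 ± 1.36, and 17 mutant cells, at 1.93 ± 2.04. The part of depth in the difference at E13.5 was not tested beyond these values.

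**Figure D2:**
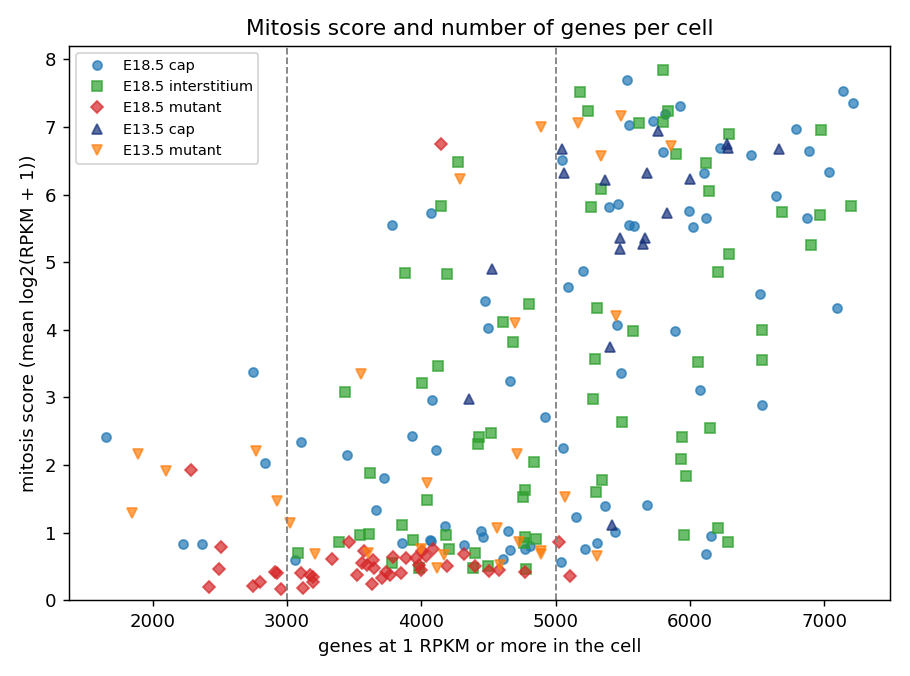
Mitosis score against the number of genes detected in the cell, with 1 point per cell and 1 marker per group. Dashed lines bound the range of 3000 to 5000 genes, in which the E18.5 mutant cells lie mostly under a score of 1 while cap and interstitium cells spread upward.

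Interstitium and cap cells at E18.5 were compared first, as the 2 wild-type lineages of the series. This and the later comparisons reuse the same 5 groups, so their values are not independent of one another. All 39 genes passed the filter of this and every later comparison (detected in at least 10% of the cells of either group). The score differed by -0.21 (interstitium minus cap), far less than the SD between cells. In interstitium cells 2 members were lower by 1 log2 unit or more, Spc25 (-1.16) and Pbk (-1.0), against 2.7% of the 11219 genes compared. Higher by as much was 1 member, Cks1b (1.04), against 5.94% of all genes. The median difference of the members was -0.24 and that of all genes 0.01. Within pool 2 the score was 3.39 ± 2.38 in 22 interstitium cells, and in pool 3 it was 3.34 ± 2.29 in 49, with 81.8% and 81.6% of cells at 10 or more genes.

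In E18.5 mutant cells nearly every member was lower than in cap cells of the same age. The score differed by -2.91 (mutant minus cap). Lower by 1 log2 unit or more were 37 of 39 members, against 23.2% of the 11100 genes compared. None was higher, against 4.51% of all genes. The median difference of the members was -2.90, beside -0.40 over all genes, a shift that runs with the lower number of genes per cell. The smallest differences were those of Nek2 (-0.97) and Cdc20 (-0.67), and the largest was that of Top2a (-5.22). Among cells with 3000 to 5000 genes 25 members were lower by 1 unit or more, beside 10.5% of all genes. In that range 0 were higher, beside 9.17% of all genes.

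Against interstitium cells, whose markers the E18.5 mutant cells shared, the difference was of like size. The score differed by -2.70, the median member by -2.63 and the median gene by -0.41. Lower by 1 unit or more were 37 members (23.4% of all genes), and 0 were higher (2.05% of all genes). Nek2 (-0.44) and Cdc20 (-0.67) were again the members short of 1 unit, and Kpna2 (-4.47) was lowest. Among cells with 3000 to 5000 genes 26 members were lower by 1 unit or more, beside 11.5% of all genes. In that range 0 were higher, beside 4.97% of all genes.

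At E13.5 the mutant cells were also lower. Both groups lie in pool 3, but they carry different dates in their titles and differ in sex. Genotype, date and sex cannot be told apart between them. The score differed by -2.86 (mutant minus cap), the median member by -2.93 and the median gene by -0.45. Lower by 1 unit or more were 38 members, against 27.7% of the 11449 genes compared, and 0 were higher (1.43% of all genes). Cdc20 differed by -0.02, and Cdca3 was lowest at -4.21. The size of this difference depended on the scale. As a log2 ratio of mean RPKM over the group, the members averaged -0.94, with 34 members below 0 and 5 above. The share of all genes below 0 on this scale is not given, so these counts cannot be set against a shift over all genes. The 5 members above 0 were Racgap1 (1.71), Birc5 (0.34), Nusap1 (0.17), Ttk (0.08) and Cdc20 (0.04), singled out after their values were seen. Racgap1 reached 5981 RPKM in a single E13.5 mutant cell, beside a median of 0.166 in that group.

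Cap cells of both ages were then compared, in which wild-type progenitors are seen at an early and a late stage of kidney growth. These 2 groups come from pools 2 and 3, carry different dates in their titles and differ in sex. Interstitium cells, which share 1 date, scored 3.39 in pool 2 and 3.34 in pool 3. Age, pool, date and sex cannot be told apart between the 2 cap groups. The score was lower by 1.91 at E18.5 (-1.91, E18.5 minus E13.5). Lower by 1 unit or more were 33 members, against 14.5% of the 11423 genes compared, and 0 were higher (2.53% of all genes). The median member differed by -2.01 and the median gene by -0.21. Aurka was lowest (-3.22). The 6 members short of 1 unit were Ttk (-0.06), Ccnb2 (-0.54), Cdc20 (-0.86), Spc25 (-0.96), Nek2 (-0.97) and Nuf2 (-0.98). This difference also depended on the scale. As a log2 ratio of mean RPKM the members averaged -0.64 with a median of -0.57, and 4 stood above 0, Ttk (0.55), Spc25 (0.32), Pbk (0.07) and Ckap2 (0.06), singled out after their values were seen. Here too the share of all genes above 0 is not given. Pbk and Ckap2 had been lower by 1.82 and 1.09 (-1.82 and -1.09) as means of log2 values. Between mutant cells of both ages the score differed by -1.96 (E18.5 minus E13.5), with 38 members lower (11.5% of all genes), 0 higher (6.69% of all genes) and only Nek2 (-0.66) short of 1 unit.

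**Figure D3:**
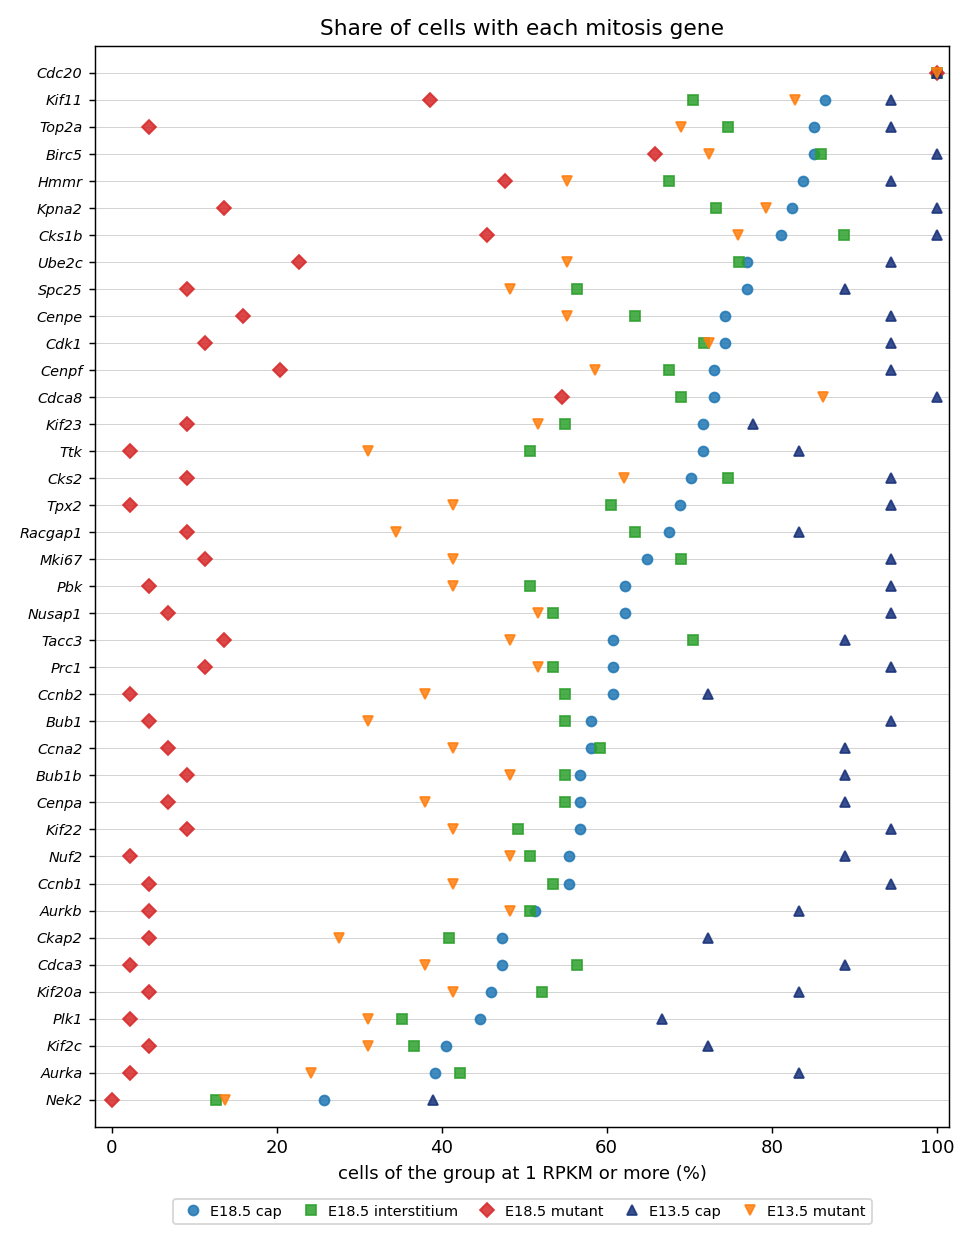
Share of cells of each group (x axis, %) in which each of the 39 genes was at 1 RPKM or more, with genes ordered by their share in E18.5 cap cells. Cdc20 sits at 100% in every group, the E13.5 cap cells stand at the right for most genes, and the E18.5 mutant cells stand at the left for all but Cdc20.

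The members are described by their roles. Where a gene's cells are counted without naming groups, the counts stand in the order of cap (74 cells), interstitium (71) and mutant (44) at E18.5, then cap (18) and mutant (29) at E13.5. The cyclins and their kinase showed the pattern in full. Cdk1 encodes the kinase that drives entry into mitosis, and its RPKM ran 0, 19.9 and 633 (lowest, median, highest) in E18.5 cap, 0, 39.4 and 487 in interstitium and 0, 0 and 154 in E18.5 mutant cells. It ran 0.149, 121 and 212 in E13.5 cap and 0, 2.61 and 390 in E13.5 mutant cells. Cdk1 was detected in 55, 51, 5, 17 and 21 cells, so the E18.5 mutant cells were low and the others overlapped. Ccnb1, the cyclin B1 partner of Cdk1, was detected in 41, 38, 2, 17 and 12 cells. Its median was 1.87 RPKM in E18.5 cap and 201 RPKM in E13.5 cap cells, although single cells reached 1186 RPKM at E18.5 and 880 RPKM at E13.5. Ccnb2, cyclin B2, was detected in 45, 39, 1, 13 and 11 cells. Ccna2, cyclin A2 of S and G2 phase, was detected in 43, 42, 3, 16 and 12 cells, and 1 of the 3 mutant cells had 699 RPKM. Cks1b and Cks2 encode small proteins that bind cyclin-dependent kinases. Cks2 was detected in 52, 53, 4, 17 and 18 cells, and Cks1b in 60, 63, 20, 18 and 22, so Cks1b persisted in more E18.5 mutant cells. As a group the 6 genes were 6 of 6 lower in E18.5 mutant than in cap cells, with differences from -4.06 (Cks2) to -2.58 (Ccna2).

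Of the mitotic kinases, Nek2, Aurka and Plk1 were among the least detected members. Aurka encodes Aurora A, which matures the spindle poles, and Tpx2 its activator. Aurka was at a median of 0 RPKM in all groups but E13.5 cap, where the median was 105 RPKM, and was detected in 29, 30, 1, 15 and 7 cells. Both ages of wild-type cap differed more in Aurka than in any other member. Tpx2 was detected in 51, 43, 1, 17 and 12 cells. Plk1, the Polo kinase, was detected in 33, 25, 1, 12 and 9 cells, and Pbk, a kinase of mitotic cells, in 46, 36, 2, 17 and 12. Ttk and Bub1 encode kinases of the checkpoint that delays anaphase until chromosomes are attached. Ttk was detected in 53, 36, 1, 15 and 9 cells, and its median was 8.62 RPKM in E18.5 cap beside 8.2 RPKM in E13.5 cap cells, unlike most members. Bub1 was detected in 43, 39, 2, 17 and 9 cells. Nek2, a kinase of centrosome separation, was detected in 19, 9, 0, 7 and 4 cells, and its count of 0 of 44 allows, at 3 cells, a share of up to 6.82% with Nek2 at 1 RPKM or more (8.04% by Clopper-Pearson). As the depth is unknown, neither value limits the share of cells that express Nek2. As the Nek2 mean in cap cells was 0.97, a difference of 1 unit was out of reach.

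The chromosomal passenger complex, which corrects faulty attachments and guides cytokinesis, showed unequal members. Aurkb, its kinase Aurora B, was detected in 38, 36, 2, 15 and 14 cells. Birc5 (survivin) was detected in 63, 61, 29, 18 and 21 cells, and Cdca8 (borealin) in 54, 49, 24, 18 and 25. Birc5 and Cdca8, subunits that bring the complex to its sites, were thus in 65.9% and 54.5% of the E18.5 mutant cells while Aurkb was in 4.55%. Incenp, which encodes the scaffold of the complex and is no member, was chosen after its values were seen, and was detected in 41, 40, 3, 17 and 11 cells. The level of Birc5 and Cdca8 was low in E18.5 mutant cells, with a median of 2.36 RPKM for Birc5 and 1.02 RPKM for Cdca8, beside 19.5 and 4.72 RPKM in E18.5 cap cells.

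Genes of the centromere and kinetochore, where microtubules grip chromosomes, were all lower in the E18.5 mutant cells. All 6 were lower than in cap cells by 1 log2 unit or more, beside 23.2% of all genes. Their differences from cap cells ran from -3.79 (Spc25) to -2.51 (Bub1b). Cenpa, the histone variant that marks centromeres, was detected in 42, 39, 3, 16 and 11 cells. Cenpe, a kinetochore motor, was detected in 55, 45, 7, 17 and 16 cells, and Cenpf, a large kinetochore protein, in 54, 48, 9, 17 and 17. Nuf2 and Spc25 belong to the NDC80 complex that binds microtubules, and were detected in 41, 36, 1, 16 and 14 and in 57, 40, 4, 16 and 14 cells. Bub1b, the BubR1 checkpoint protein, was detected in 42, 39, 4, 16 and 14 cells. Of these genes Spc25 differed most between the E18.5 wild-type lineages, and its median was 32.2 RPKM in cap and 6.60 RPKM in interstitium cells.

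The kinesins, motors of the spindle, differed by -3.18 (Kif22) to -2.21 (Kif2c) between E18.5 mutant and cap cells. Kif11, which pushes the spindle poles apart, was the most widespread at E18.5, in 64, 50, 17, 17 and 24 cells. Kif23, which works with Racgap1 in cytokinesis, was detected in 53, 39, 4, 14 and 15 cells, and Racgap1 itself in 50, 45, 4, 15 and 10. Kif22, a motor on chromosome arms, was detected in 42, 35, 4, 17 and 12 cells, Kif20a, a motor of cytokinesis, in 34, 37, 2, 15 and 12, and Kif2c, which shortens microtubules, in 30, 26, 2, 13 and 9. Even the widespread Kif11 was at a median of only 0.713 RPKM in E18.5 mutant cells.

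Spindle and midzone genes followed. Prc1, which bundles midzone microtubules, was detected in 45, 38, 5, 17 and 15 cells, Nusap1, which binds spindle microtubules, in 46, 38, 3, 17 and 15, and Tacc3, a stabiliser of spindle fibres, in 45, 50, 6, 16 and 14. Hmmr, which helps to build the spindle, was detected in 62, 48, 21, 17 and 16 cells, and its median was 0.988 RPKM in E18.5 mutant cells, close to the threshold of 1. Ckap2, a microtubule protein, was among the rarest, in 35, 29, 2, 13 and 8 cells.

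Partners of the anaphase-promoting complex, the ubiquitin ligase that ends mitosis, were not alike. Ube2c encodes an enzyme that works with the complex to put ubiquitin on its substrates. Its RPKM ran 0, 24.7 and 1503 in E18.5 cap, 0, 19.2 and 2495 in interstitium and 0, 0.292 and 1100 in E18.5 mutant cells. It ran 0.918, 361 and 973 RPKM in E13.5 cap and 0, 1.56 and 1350 in E13.5 mutant cells. The groups overlapped, and the mutant medians lay below the wild-type medians at each age. Cdca3, which helps to trigger mitotic entry, was detected in 35, 40, 1, 16 and 11 cells. Cdc20, the activator that brings substrates to the complex, was detected in every cell of the 5 groups. Its RPKM ran 2.38, 17.1 and 509 in E18.5 cap, 2.15, 15.2 and 1368 in interstitium and 3.71, 10.9 and 102.0 in E18.5 mutant cells. At E13.5 it ran 7.40, 42.1 and 208 in cap and 8.56, 21.5 and 167 in mutant cells.

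Mki67, Top2a and Kpna2 complete the list. Top2a, the topoisomerase that untangles chromosomes, ran 0, 131 and 812 RPKM in E18.5 cap, 0, 80.5 and 673 in interstitium and 0, 0 and 745 in E18.5 mutant cells. It ran 0.384, 324 and 677 RPKM in E13.5 cap and 0.140, 6.51 and 701 in E13.5 mutant cells. It was detected in 63 of 74 cap cells and 2 of 44 mutant cells at E18.5, and single mutant cells still reached wild-type levels. Mki67, the Ki-67 protein of the chromosome surface, was detected in 48, 49, 5, 17 and 12 cells, and Kpna2, an import receptor of the nucleus, in 61, 52, 6, 18 and 23.

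The members varied together over the cells of all 5 groups. These cells share depth differences and differences between groups, and no r within a single group is given for the members. Over all grouped cells the Pearson r of each member with the mean of the other 38 had a median of 0.82. By this measure 25 members were above 0.8. The highest was Tpx2 at 0.89. Of the 741 pairs of members, 659 had an r over 0.5, and the median was 0.67. Ccnb1 and Ube2c were the most alike pair (0.85), followed by Ube2c with Cdca3 (0.83) and Tpx2 with Ube2c (0.83). The least alike were Cks1b with Cdc20 (0.23) and Cks1b with Nek2 (0.24).

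A departing member was one with r under 0.5 or one detected in 50% or more of the 73 cells with fewer than 10 members. Of these low cells 42 were E18.5 mutant, 13 interstitium, 9 E18.5 cap, 8 E13.5 mutant and 1 E13.5 cap. The departing members numbered 4. Nek2 had r 0.49, and the next member above it on this measure was Cdc20 at 0.57. Cdc20 was detected in 73 of the 73 low cells, Birc5 in 46 (63%) and Cks1b in 43 (58.9%), and just outside the threshold lay Cdca8 in 33 (45.2%) and Hmmr (43.8%). Birc5 had r 0.79 and Cks1b r 0.59. The departure of Nek2 depended on the measure. It was lost with Spearman correlation and with a pseudocount of 0.1, which left 3 departing members, and within E18.5 cap and interstitium cells, where Kpna2 and Ube2c departed and Nek2 did not. Birc5, Cdc20 and Cks1b departed in each of these settings.

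The departing members differed in what their signal in low cells amounted to. In cells with fewer than 10 other members the median of Cdc20 was 10.9 RPKM, beside 40.8 RPKM in cells with 30 or more others, so it was present throughout and higher with the programme. Cks1b went from 7.85 to 341 RPKM and Birc5 from 2.15 to 75.1 RPKM. Members within the rule over all grouped cells, Ube2c among them, went from values near 0, such as 0.0973 to 396 RPKM for Top2a, 0.443 to 396 RPKM for Ube2c and 0 to 276 RPKM for Ccnb1. Nek2 remained low even in cells with the programme, at a median of 0.0672 RPKM. The authors' counting rule is not given in the sources used here, so reads that Cdc20, Cks1b or any member shares with an overlapping gene or a near-identical copy cannot be told apart.

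**Figure D4:**
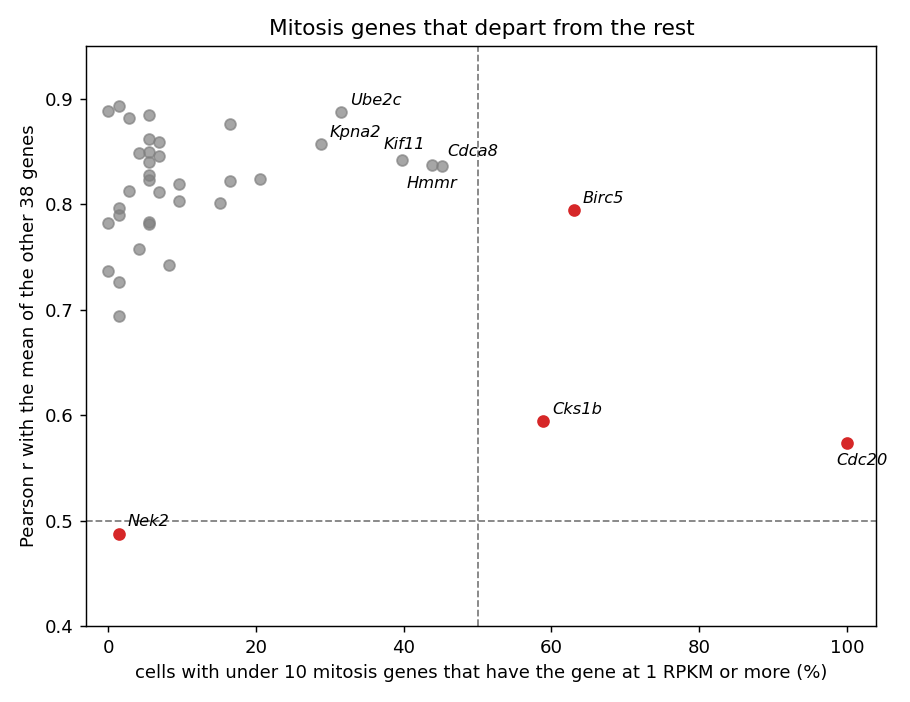
For each of the 39 genes, the share of cells with fewer than 10 mitosis genes in which it was at 1 RPKM or more (x axis, %) against Pearson's r with the mean of the other 38 genes over all grouped cells (y axis). Red points are the 4 departing genes: Nek2 lies under the dashed line at 0.5, and Birc5, Cks1b and Cdc20 lie right of the dashed line at 50%.

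The members differed in how many other members were detected in the cells that had them. When cells were binned by the number of other members detected, Top2a was in 6.76% of cells with 0 to 9 others, 81.3% with 10 to 19, 89.3% with 20 to 29 and 100% with 30 or more. In cells with 10 to 19 others Birc5 (72.1%), Kif11 (65.2%), Kpna2 (61.4%) and Cks1b (60.9%) came next. In the same bin Nek2 (4.26%), Plk1 (6.38%), Aurka (8.51%), Kif2c (10.2%), Cdca3 (13%), Aurkb (14.9%) and Ccna2 (14.9%) were rarest. Cdca3, Aurkb and Ccna2 reached 95.3%, 95.3% and 96.5% of cells with 30 or more others, while Plk1, Aurka, Kif2c and Ckap2 stayed at 79.3%, 78.4%, 77% and 74.4% and Nek2 at 39.8%. Bins of 20 to 29 others held 26 to 30 cells. This is an order of detection, and the phase of each cell was not measured. The parts of transcript level, gene number and the mix of groups in this order were not tested.

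**Figure D5:**
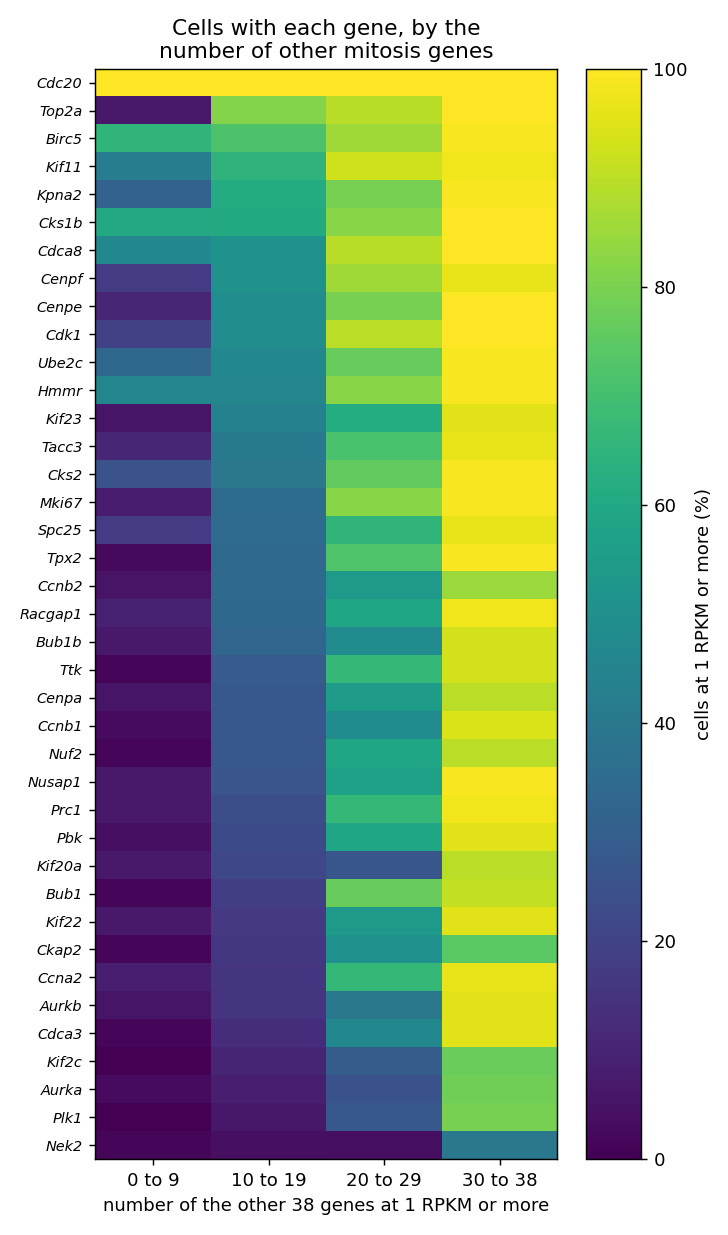
Share of cells (colour, %) in which each gene was at 1 RPKM or more, for cells binned by how many of the other 38 genes were detected (columns). Genes are ordered by the column for 10 to 19 others, from Cdc20 and Top2a at the top to Plk1 and Nek2 at the bottom.

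Because the members moved together over all grouped cells, the bases before their starts were read for motifs that cell-cycle genes are known to carry. The cell-cycle homology region, TTTGAA, is a site of the DREAM and MuvB complexes, and the CCAAT box is a site of NF-Y. RefSeq (GRCm38.p6) start sites matched 34 of the 39 members, with 35 windows of 250 bases before a start. Both motifs were searched on both strands, and matches may overlap, as CCAAT and its reverse complement do in the Ube2c window. TTTGAA was in 13 of 35 member windows (37.1%) and in 16% of all 32851 windows. CCAAT was in 30 of 35 (85.7%) beside 33.8% of all, at 2 or more places in 19 (54.3%) beside 10.1%, and together with TTTGAA in 12 (34.3%) beside 5.55%. A match is a description of the letters and not a site in use.

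The windows of 4 members that did not depart over all grouped cells (Cdk1, Top2a, Ube2c and Ccnb1) and of 3 departing members (Cdc20, Cks1b and Birc5) are shown 5′ to 3′ along the gene, with matches in capitals. The first motif may read TTTGAA or, on the other strand, TTCAAA, and the box may read CCAAT or, on the other strand, ATTGG. On the minus strand the last base printed is the one next to the start. The windows lie as follows: Cdk1 at chr10:69352913-69353162 (minus strand), Top2a at chr11:99024190-99024439 (minus strand), Ube2c at chr2:164769679-164769928 (plus strand), Ccnb1 at chr13:100786487-100786736 (minus strand), Cdc20 at chr4:118437344-118437593 (minus strand), Cks1b at chr3:89418292-89418541 (minus strand) and Birc5 at chr11:117848987-117849236 (plus strand).
Cdk1: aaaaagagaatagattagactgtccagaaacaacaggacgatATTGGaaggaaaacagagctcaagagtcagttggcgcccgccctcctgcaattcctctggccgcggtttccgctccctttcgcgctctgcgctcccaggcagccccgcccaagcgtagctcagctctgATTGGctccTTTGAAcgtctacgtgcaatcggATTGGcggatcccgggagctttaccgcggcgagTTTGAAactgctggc
Top2a: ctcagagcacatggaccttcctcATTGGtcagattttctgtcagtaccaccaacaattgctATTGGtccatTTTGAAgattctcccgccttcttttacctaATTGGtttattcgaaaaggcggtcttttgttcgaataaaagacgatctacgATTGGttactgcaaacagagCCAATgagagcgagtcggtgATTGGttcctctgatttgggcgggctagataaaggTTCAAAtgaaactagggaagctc
Ube2c: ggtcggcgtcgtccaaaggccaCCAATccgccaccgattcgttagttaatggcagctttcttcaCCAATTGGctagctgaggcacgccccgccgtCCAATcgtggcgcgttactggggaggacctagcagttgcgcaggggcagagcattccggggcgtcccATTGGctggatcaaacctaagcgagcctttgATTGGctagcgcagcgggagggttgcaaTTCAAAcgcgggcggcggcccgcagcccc
Ccnb1: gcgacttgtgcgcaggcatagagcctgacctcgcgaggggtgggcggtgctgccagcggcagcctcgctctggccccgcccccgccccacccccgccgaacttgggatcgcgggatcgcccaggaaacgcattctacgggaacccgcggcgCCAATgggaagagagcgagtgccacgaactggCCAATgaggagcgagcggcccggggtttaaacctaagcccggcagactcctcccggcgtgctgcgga
Cdc20: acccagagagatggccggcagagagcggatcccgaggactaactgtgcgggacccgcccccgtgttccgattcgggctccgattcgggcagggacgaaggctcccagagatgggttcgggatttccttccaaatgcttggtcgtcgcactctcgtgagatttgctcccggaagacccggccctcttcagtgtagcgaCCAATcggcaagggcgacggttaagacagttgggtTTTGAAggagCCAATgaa
Cks1b: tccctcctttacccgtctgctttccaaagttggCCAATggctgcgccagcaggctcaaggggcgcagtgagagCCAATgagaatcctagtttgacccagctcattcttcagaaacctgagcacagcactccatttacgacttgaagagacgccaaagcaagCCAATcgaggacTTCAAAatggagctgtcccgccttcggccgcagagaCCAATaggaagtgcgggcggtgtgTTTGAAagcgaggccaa
Birc5: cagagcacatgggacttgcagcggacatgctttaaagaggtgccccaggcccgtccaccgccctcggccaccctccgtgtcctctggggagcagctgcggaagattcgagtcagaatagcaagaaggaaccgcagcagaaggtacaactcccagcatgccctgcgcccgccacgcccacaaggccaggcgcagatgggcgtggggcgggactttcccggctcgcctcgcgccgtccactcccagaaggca

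The departing members were not alike in these letters. Cdc20 has TTTGAA 18 bases before its start and CCAAT at 2 places, and Cks1b has TTTGAA 17 bases before its start and CCAAT at 4 places, in number within the range of the other 4. Top2a and Ube2c hold CCAAT at 6 places each and TTTGAA nearest to the start at 23 and 29 bases, and Cdk1 holds TTTGAA at 15 bases. Ccnb1 has CCAAT at 2 places and no TTTGAA in its window. Birc5 has neither motif, which says only that these letters are not in this window.

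Genes of the same process outside the members were then counted from lists set up with earlier results of these data known. Of all genes compared, 23.2% were lower by 1 unit in E18.5 mutant than in cap cells, 27.7% in the E13.5 mutant and 14.5% in E18.5 relative to E13.5 cap. Of 19 DNA replication genes, 17 were lower in the first comparison, 11 in the second and 7 in the third, with 0 higher. Those with the largest differences at E18.5 were Uhrf1 (-4.23), which maintains DNA methylation, the ribonucleotide reductase genes Rrm2 (-4.21) and Rrm1 (-4.05), and the helicase genes Mcm4 (-3.74) and Mcm7 (-3.71). At E13.5 all 5 differed less, by -1.42 (Uhrf1), -2.83 (Rrm2), -3.08 (Rrm1), -1.25 (Mcm4) and -2.37 (Mcm7). At least 10 of the 19 were detected in 50, 50, 0, 17 and 16 cells of the groups in the order above. Across cells the replication and mitosis scores were only loosely related, with r 0.49 over all grouped cells and 0.43, 0.17, 0.47, -0.09 and 0.31 within the groups in that order.

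Structural and regulatory lists split, read against the 23.2% of all genes lower at E18.5 and 27.7% at E13.5. Of 13 cohesin and condensin genes, which hold and compact chromosomes, 11 were lower in E18.5 mutant than in cap cells, led by Smc4 (-4.35), Ncaph (-3.09) and Rad21 (-3.08), and 10 were lower in E13.5 mutant cells. Of 22 other kinetochore and spindle genes 18 and 17 were lower in the same comparisons, led by Ckap2l (-2.71) and Ndc80 (-2.69) at E18.5. Of 15 genes of mitotic entry and the checkpoint 10 and 9 were lower, led by Fbxo5 (-3.58), an inhibitor of the anaphase-promoting complex, Bub3 (-3.11) and Mad2l1 (-3.05). Subunits of the anaphase-promoting complex moved less, with 7 and 9 of 16 lower, and Anapc4 was the largest at E18.5 (-1.94) while at E13.5 it stood at 0.37. Of 21 genes that control mitotic transcription 7 of 21 at E18.5 and 7 of the 19 past the filter at E13.5 were lower, not far from those shares of all genes. The list's median difference was -0.77 and -0.57, beside -0.40 and -0.45 over all genes. Among these were Foxm1 (-1.33 and -2.58), an activator of mitotic genes, and Rbbp4 (-2.73 and -2.43), a subunit of the MuvB core. None of these 5 lists held a gene higher by 1 unit in either comparison.

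Brakes of the cycle and G1 regulators went both ways. Of the 14 past the filter, 4 were lower and 3 higher in E18.5 mutant than in cap cells, beside 23.2% and 4.51% of all genes. Cdkn1c, which encodes the inhibitor p57, was higher by 5.18, with means of 4.09 ± 2.52 in cap, 7.95 ± 1.78 in interstitium and 9.27 ± 2.10 in mutant cells. Btg2, an antiproliferative gene, was higher by 3.57, and Ccnd2, a D-type cyclin of G1, by 3.05, but Ccnd2 was lower in mutant than in interstitium cells by 2.23 (-2.23). Cdk4, the partner of D-type cyclins, was lower (-2.84), as was Trp53 (-2.36). At E13.5, 3 of 14 were lower and 0 higher in mutant cells, beside 27.7% and 1.43% of all genes. Cdkn1c was already high in both E13.5 groups, at 6.88 ± 1.61 in cap and 7.54 ± 2.72 in mutant cells. Across the cells of a group, in the same order of groups, the r of Cdkn1c with the mitosis score was 0.02, -0.15, -0.03, -0.07 and 0.19. For Ccnd2 it was -0.24, -0.20, -0.13, -0.08 and -0.27, and for Btg2 -0.04, -0.08, -0.24, -0.34 and -0.14. The last 2 genes were thus below 0 in each group, weakly in most, and Cdkn1c had no single sign.

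Of the 10452 other genes detected in 10% of the cells, the 15 whose level followed the mitosis score most closely over all grouped cells included Cdca2 (r 0.87), Ckap2l (0.87), Fam64a (0.83), Ect2 (0.80), Fbxo5 (0.80), H2afx (0.80), Ndc80 (0.79), Kif20b (0.79), Ncapd2 (0.78), Ccnf (0.78), Casc5 (0.78), Depdc1a (0.78), Hmgb2 (0.78) and Smc4 (0.78). Of these 15 genes, 8 are in the lists above, and 45 genes in all had r over 0.7. Cdca2, which brings a protein phosphatase to chromosomes at the end of mitosis, was detected in 44 of 74 E18.5 cap and 36 of 71 interstitium cells, but in 3 of 44 E18.5 mutant cells.

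Within E18.5 cap cells the score was set beside transcripts of both lineages. Cells with Six2, the transcription factor that maintains nephron progenitors, at 1 RPKM or more scored 3.87 ± 2.44 (62 cells), and 33 of them (53.2%, 40.1 to 66) had 30 or more members. The 12 cells under 1 RPKM of Six2 scored 1.95 ± 1.43, all 12 had 10 or more members, and 1 (8.33%, 0.211 to 38.5) had 30 or more. Cells with Six2 also had more genes, a median of 5458 beside 3894, and the part of this in the difference was not tested. A split by Cited1, another progenitor gene, gave 3.87 ± 2.48 (40 cells) and 3.20 ± 2.29 (34 cells), with 55% and 35.3% at 30 or more members. The stromal gene Foxd1 gave 4.10 ± 2.44 (25 cells) and 3.29 ± 2.36 (49 cells), with 60% and 38.8%. Cap cells with a Foxd1 transcript thus also had the higher mean, and the difference was not particular to progenitor genes. For Pdgfra, another stromal gene, it ran the other way, with 2.56 ± 2.33 (8 cells) and 3.68 ± 2.40 (66 cells). In each of these splits the side with the higher score also had more genes. Median genes with and without the transcript were 5508.5 and 4378.5 for Cited1, 5488 and 5037 for Foxd1, and 3965.5 and 5383 for Pdgfra. The part of gene number in these differences was not tested. In the interstitium group, cells with and without Six2 scored 3.57 ± 2.08 (19 cells) and 3.27 ± 2.39 (52 cells), with medians of 6057 and 4767.5 genes. In E13.5 mutant cells, those with Pax2 transcript scored 2.88 ± 2.78 (17 cells, 6 with 30 or more members). Those without scored 2.23 ± 1.72 (12 cells, 3 with 30 or more), and the medians were 4585 and 4104.5 genes.

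A few cells stood apart from their groups, and were singled out after their values were seen. The E18.5 mutant cell numbered 17 had 38 of the 39 members, all but Nek2, with Top2a at 745 RPKM and Ccnb1 at 538 RPKM. It was the only E18.5 mutant cell with Six2 at 1 RPKM or more (28.8 RPKM). It also had Foxd1 at 8.98 RPKM and Col1a1 at 156 RPKM. Its Cited1 and Pax2 were at 0, and its score was 0.61 over the progenitor markers and 4.57 over the interstitium markers. Without this cell the E18.5 mutant score was 0.51 on average over the other 43 cells, in place of 0.66. The mutant cell numbered 16 had 16 members, with Top2a at 689 RPKM but Ccnb1 at 0, in the group's smallest set of 2284 genes. In that cell the mitochondrial pseudogene LOC100503946 stood at 146422 RPKM. The E13.5 cap cell numbered 5 was the only cell of its group with under 10 members. It had 9 members and a score of 1.11 in spite of 5420 genes, 17 of the 19 replication genes, and an interstitium score of 3.75.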

How the data were processed

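Single cells were captured on a Fluidigm C1 and sequenced, per the labels' protocols. The authors deposited 1 table of RPKM for 237 cells and 36186 gene entries, made with TopHat on mm10 per the submitters' processing notes. The TopHat version, gene models and counting rule are not given in the sources used here, and low values did not fall on steps of whole reads (a median of 12.5% of ratios in the 3 fullest bins, over 100 pairs of cells), so the depth of each cell is unknown. No cells held identical values.

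The labels for source, cell type, genotype and age gave each cell its group. From the deposited RPKM, log2(RPKM + 1) was averaged over the cells of a group. In each comparison genes were compared if detected (1 RPKM) in at least 10% of either group's cells, and a difference of 1 log2 unit was counted. The 39 members and all lists were chosen with earlier results of these data known. Members may all be named. Up to 5 genes of a pathway list are named by their absolute difference between E18.5 mutant and cap cells, with any that moved against their list, and the 15 genes most like the score, of which 1 is not reported here. No doublet caller was used. Scripts were tested on simulated data and run in Python 3.11.15 with pandas 2.3.3, numpy 2.4.6 and scipy 1.17.1. Alternatives were other pseudocounts and thresholds, other scalings, a ratio of means, cells matched on genes, single pools, and leaving out cells with much of a mitochondrial pseudogene.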

Additional observations from a re-analysis of the deposited data

Results flagged for a closer look

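The cell that entered no comparison lies at the upper end of the range for its mitosis genes. Its source name gives E13.5 wild-type cap mesenchyme while its cell type label gives interstitial, and its title places it in pool 4. It had all 39 members at 1 RPKM or more and a score of 7.04, above the highest E13.5 cap cell (6.94). It had 6570 genes, Six2 at 143 RPKM and Pax2 at 24.7 RPKM. Whether its score relates to its pool was not tested.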

How the results depend on the processing

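No alternative reversed a score difference of 1 unit or more, but as a ratio of mean RPKM members lower by 1 unit turned above 0, Racgap1, Birc5, Nusap1 and Ttk at E13.5 and Pbk and Ckap2 between cap ages. Of 147 alternatives 110 stayed within the tolerance and 37 moved. The tolerance was the smaller SD between cells of both groups for a score, 1.5 times for a count and the interval for a share, so that large changes can lie within it. With a pseudocount of 0.1 the score differed by -4.45 (E18.5 mutant minus cap), -4.14 (E18.5 mutant minus interstitium) and -3.08 (mutant, E18.5 minus E13.5). Between interstitium and cap 6 members were then apart, 5 lower and 1 higher, beside 9.85% and 13% of all genes. With a pseudocount of 10 the first 2 scores were -1.48 and -1.37. Between interstitium and cap 0 members were apart, beside 0.339% of all genes lower and 1.62% higher. Between the ages of cap and of mutant cells 21 and 16 members were lower, beside 2.82% and 2.03% of all genes. Among cells with 3000 to 5000 genes the first 2 scores were -1.31 and -1.39. The score difference between interstitium and cap turned to 0.09. In these cells 8 members were apart between interstitium and cap, 3 lower and 5 higher, beside 5.13% and 10.6% of all genes. Between mutant ages 25 members were lower, beside 12.5% of all genes. As a ratio of group mean RPKM the E13.5 difference was -0.94, and that between cap ages -0.64 in place of -1.91. In cells matched on genes 27 members were lower and 2 higher between cap ages, beside 29.3% and 21.1% of all genes. That setting held only 2 E13.5 cap cells. Shares of cells depended on the threshold. In E18.5 cap cells the share was 100% at 5 members, 70.3% at 15, 62.2% at 20, 45.9% at 30, 97.3% at 0.5 RPKM and 66.2% at 5 RPKM. In interstitium cells these were 100%, 67.6%, 59.2%, 39.4%, 91.5% and 67.6%, and 65.7% in cells matched on genes. It was 68.2% in E18.5 mutant cells at 5 members. In E13.5 cap cells it was 100% at 5 members, at 0.5 RPKM and in matched cells. In E13.5 mutant cells it was 100% at 5 members, 51.7% at 15, 34.5% at 20, 31% at 30, 100% at 0.5 RPKM and 48.3% at 5 RPKM. With cells left out where the pseudogene LOC100503946 reached 20000 RPKM, the score differed by -3.28 (E18.5 mutant minus cap) and -2.50 (E13.5 mutant minus cap). The causes were not tested. The thresholds of 20 and 30 members and both removals of cells, by that pseudogene and singly, were chosen after seeing the data. No paired analysis was possible because each sample is a different single cell and its number is only a name. The limits are 1 sample per group, unknown depth, and pools and sexes that mostly run with the groups.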
